A study of Mus musculus with 8 samples.

Results

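The genes described here encode the proteins that acidify the lysosome and the phagosome, the enzymes and membrane proteins that work in them, and the transcription factors that control such genes. The list held 38 names. It matched 37 mouse protein-coding genes, because Limp2 is another name for the product of Scarb2. Open-chromatin peaks of 8 libraries were merged where they overlapped into 76751 regions, and each region was given to the protein-coding gene with the nearest end of its annotated span within 50 kb. In this way 247 regions fell to the 37 genes, of 61954 regions that fell to any gene. Distance alone set this assignment, so a region listed under a gene need not act on it.

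The study measured chromatin accessibility by ATAC-seq, in which a transposase cuts and tags accessible DNA, in bone-marrow-derived macrophages, which are grown from mouse bone marrow. There were 4 groups of 2 libraries each. They were Lamin-A knockout (KO) cells given lipopolysaccharide (LPS, a bacterial cell-wall component) for 6 h, untreated KO cells, wild-type (WT) cells given LPS for 6 h, and untreated WT cells. All cells had been grown for 7 days in 60 mm non-treated plastic dishes, then frozen with 5% DMSO, thawed, lysed and tagmented, and all libraries were amplified with 10 cycles of PCR. The labels give no mouse strain, sex or age, no LPS dose, no growth factor, and no account of how the knockout was made. They do not say whether the 2 libraries of a group came from separate animals, so any p-value measures only the spread between these libraries, which may be technical. The design asks how LPS changes accessibility and what role Lamin-A/C has in it.

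A lysosome is an acidic organelle in which proteins, lipids and sugars are broken down, and a phagosome becomes acidic and digestive by fusing with lysosomes. The vacuolar proton pump, or V-ATPase, fills both with protons; its V1 subunits split ATP in the cytosol and its V0 subunits carry protons through the membrane. The transcription factors TFEB, TFE3 and MITF bind E-boxes, many of them of the CLEAR type, in front of lysosomal genes. In macrophages this machinery digests engulfed microbes and dead cells.

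Sequences just before the start sites are shown here because the letters of the E-box core that these factors bind recur there, in DNA that was called accessible in every library. RefSeq promoter sequences of build GRCm38.p6 (mm10) were matched for 29 of the 37 genes, in 37 start windows that ran from 250 bases before to 50 bases after a start. The genes with no entry were Ctsb, Atp6v1c1, Asah1, Atp6v0d2, Atp6v1h, Ctsh, Npc1 and Atp6v1b2. The 250 bases before the start are printed 5′ to 3′ on the gene's own strand for 5 genes with the core and for Scarb2 with a related motif. They lie at chr8:13158911-13159160 (plus strand), chr7:142387828-142388077 (minus), chr8:3500269-3500518 (plus), chr16:44139260-44139509 (minus), chr11:119267713-119267962 (plus) and chr5:92505658-92505907 (minus). Capitals mark TCACGTG on either strand in the first 5 sequences, and TCATGTG on either strand in Scarb2; a run of 8 capitals is a core that has both the T and the A.
Lamp1: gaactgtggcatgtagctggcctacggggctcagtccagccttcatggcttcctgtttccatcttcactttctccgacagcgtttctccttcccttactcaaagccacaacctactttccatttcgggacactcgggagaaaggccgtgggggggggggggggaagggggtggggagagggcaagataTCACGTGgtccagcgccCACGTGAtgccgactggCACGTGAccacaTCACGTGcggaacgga
Ctsd: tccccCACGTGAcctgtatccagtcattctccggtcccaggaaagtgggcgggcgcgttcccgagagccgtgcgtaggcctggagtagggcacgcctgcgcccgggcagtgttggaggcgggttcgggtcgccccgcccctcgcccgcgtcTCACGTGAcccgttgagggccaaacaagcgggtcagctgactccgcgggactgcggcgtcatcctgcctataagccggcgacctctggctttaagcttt
Mcoln1: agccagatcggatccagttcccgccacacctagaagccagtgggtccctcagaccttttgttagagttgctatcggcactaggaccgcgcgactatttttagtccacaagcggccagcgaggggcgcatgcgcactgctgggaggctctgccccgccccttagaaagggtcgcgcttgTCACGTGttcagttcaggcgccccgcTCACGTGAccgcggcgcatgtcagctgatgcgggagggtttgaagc
Atp6v1a: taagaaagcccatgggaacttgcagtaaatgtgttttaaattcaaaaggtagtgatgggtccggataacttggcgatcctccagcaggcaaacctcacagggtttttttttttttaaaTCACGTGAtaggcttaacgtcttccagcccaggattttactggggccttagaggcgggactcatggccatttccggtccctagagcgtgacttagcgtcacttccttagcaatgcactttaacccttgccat
Gaa: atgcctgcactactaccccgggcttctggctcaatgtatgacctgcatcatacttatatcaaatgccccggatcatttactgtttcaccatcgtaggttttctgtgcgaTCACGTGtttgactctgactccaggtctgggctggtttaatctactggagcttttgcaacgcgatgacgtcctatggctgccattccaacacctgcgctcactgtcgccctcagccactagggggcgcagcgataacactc
Scarb2: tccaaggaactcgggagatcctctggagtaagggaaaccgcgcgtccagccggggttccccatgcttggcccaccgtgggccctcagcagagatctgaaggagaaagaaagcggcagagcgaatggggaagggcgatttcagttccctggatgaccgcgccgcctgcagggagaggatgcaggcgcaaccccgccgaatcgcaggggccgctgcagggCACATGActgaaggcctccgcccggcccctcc

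The E-box core CACGTG was present in 9 of the 37 start windows (24.3%), against 7.84% of the 21238 start windows of all protein-coding genes. With a T before it or an A after it, as TCACGTG on either strand, the core was found in 8 windows (21.6%), against 4.39% of all windows. Every TCACGTG match also contains CACGTG. These 8 windows belonged to Lamp1, Ctsd, Mcoln1, Atp6v1a, Gaa, Atp6v0d1, the second start of Ctsa and a start of Lgmn. Lamp1 held 4 such cores, whose first bases lay 61, 45, 28 and 15 bases before the start. Ctsd held 2, at 245 and 98 bases, and Mcoln1 held 2, at 71 and 45 bases. Atp6v1a held 1 at 131 bases and Gaa held 1 at 140 bases.

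The larger share of windows with the core was also present among accessible starts. Of the windows whose start lay in a region called in all 8 libraries, 25% of those of the lysosomal genes held TCACGTG, against 6.99% of those of all genes. The MITF-type motif TCATGTG was in 5 windows (13.5%), at Ctsa, Ctss, Grn, Scarb2 and Tpp1, against 2.99% of all windows. The AP-1 motif TGANTCA was in 4 windows (10.8%), against 6.99% of all. The median GC content was 56.0% in the lysosomal windows and 56.3% in all windows. A motif match describes letters only and shows no binding.

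The libraries held 49661 and 45442 peaks in KO cells with LPS, 44504 and 47451 in untreated KO cells, 59750 and 55357 in WT cells with LPS, and 53942 and 55064 in untreated WT cells. All 4 KO lists were shorter than all 4 WT lists, and read totals were not used here, so whether depth differed with genotype is unknown. At Lmna, the gene of Lamin-A/C, 12 regions were found and 6 of them were called in all 8 libraries. Of the rest, 1 had calls from every KO library without any from WT, and 1 the reverse; the labels do not say which part of the gene was targeted, so this does not check the genotype. All 8 macrophage marker genes examined had accessible regions, 33 of 67 of them called in every library. Of the 67, KO cells had 7 lost and 0 gained against WT cells both after LPS and untreated (10.4% lost, beside 6.94% and 6.22% of all regions), and the part of this in the genotype results below was not tested. Regions also lay near most markers of other cell types, and none was called near Calcr, Cd79a, Mpo or Zbtb46. By mean percentile of fold enrichment in the lists, the highest region stood at 96.0 for Xcr1, 93.9 for Cd3d and 92.4 for Ms4a1. It stood at 13.2 for Pax5 and 4.97 for Elane. In bulk samples such as these, fewer cells of a type and less accessibility per cell cannot be told apart.

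The starts of the lysosomal genes were for the most part accessible in every library. Of the 37 start windows, 28 (75.7%) had their start in a region called in all 8 libraries, against 40.9% of the start windows of all protein-coding genes. A further start, the second of Psap, lay in a region called in 7 libraries. The 8 starts outside any region were those of Atp6v0a1, Atp6v1d, Ctsk and Npc2, 1 of 2 at Lgmn, 2 of 3 at Mitf and 1 of 3 at Tfeb. The Atp6v0a1 window had its start inside the gene span. The lower-numbered end of that span lay in another region, chr11:101009163-101009639, called in all 8 libraries. Across all 247 regions, 133 (53.8%) were called in all 8 libraries, against 40.3% of all regions and 42.5% of those assigned to any gene. Regions called in only 1 library made up 11.3% of the lysosomal regions and 14.9% of all.

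Height was read as the authors' fold enrichment, which was made within each library, and was therefore used only as a rank. For the 30960 regions called in all 8 libraries, a percentile among those shared regions is given, where 100 is the highest fold enrichment. The lysosomal shared regions stood lower than shared regions in general, with a median percentile of 39.7 against 49.0. Without regions that held a start, the medians were 37.6 and 44.4. The lysosomal regions had a median width of 426 bp, against 396 bp in all regions.

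Open starts differed widely in rank. At Lipa, whose acid lipase splits cholesterol esters, the start region chr19:34527242-34527755 stood at percentiles 89.6 and 85.8 in KO cells with LPS, 94.5 and 96.0 in untreated KO cells, 93.0 and 92.3 in WT cells with LPS and 93.7 and 83.5 in untreated WT cells. At Lamp1, an abundant glycoprotein of the lysosomal membrane, the start region chr8:13158805-13159378 stood at 17.7 and 31.6 in KO cells with LPS, 14.5 and 19.7 in untreated KO cells, 22.9 and 9.45 in WT cells with LPS and 17.8 and 12.6 in untreated WT cells. The Lamp1 region, with 4 E-box cores, was thus in the lower part of the range in every library and its groups overlapped. The start regions of Ctsz and Hexa, a carboxypeptidase and a hexosaminidase subunit, lay at the low end.

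**Figure D1:**
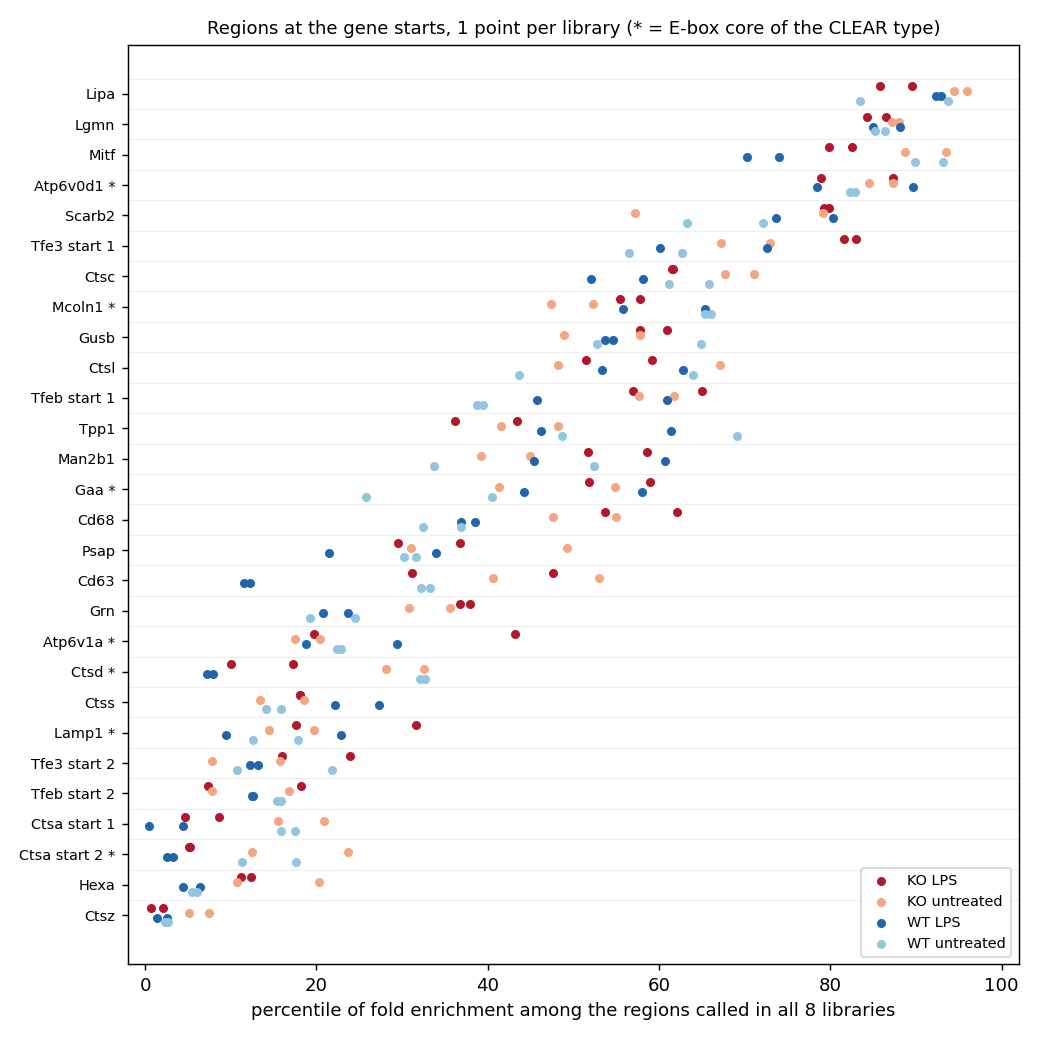
Percentile of fold enrichment among the 30960 shared regions (x axis, 0 to 100) for each region that holds a start and was called in all 8 libraries, with 1 point per library and starts on the y axis. An asterisk marks a start window with TCACGTG on either strand. Lipa, Lgmn and Mitf stand high, and Ctsz and Hexa low, in all 4 groups.

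Rank changes at shared regions were tested with limma across all 30960 of them, on normal scores of the ranks, with Benjamini-Hochberg adjustment and a threshold of adjusted p under 0.05. A difference is given in units of the normal score, where 1 unit is 1 standard deviation of all shared regions, and is positive where the group named first ranks higher. Of the 27 regions that held a listed gene's own start and were called everywhere, none passed the test with LPS in KO cells, where 9.98% of all shared regions rose and 9.5% fell. In WT cells 4 fell in rank with LPS and none rose, where 7.79% of all shared regions fell and 8.09% rose. Of all 30960 shared regions, 23763 held no start. The shares among shared regions that hold a start were not counted. None of the 27 passed between genotypes, where 1.08% of all shared regions passed untreated and 0.698% after LPS. At such shares, no call among 27 regions marks nothing out.

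The 4 starts that fell in WT cells belonged to Mitf, Ctsd, Ctsa and Cd63. The start region of Mitf (chr6:97806721-97807262) stood at 79.8 and 82.5 in KO cells with LPS and 88.7 and 93.5 in untreated KO cells (-0.48 ± 0.18, SE, adjusted p = 0.0739). In WT cells it stood at 70.3 and 74.0 with LPS and 93.1 and 89.8 untreated (-0.79 ± 0.18, adjusted p = 0.00837). In both genotypes the LPS libraries were lower without overlap, and the test was passed in WT cells alone.

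The start region of Ctsd (chr7:142387668-142388209), the gene of the aspartic protease cathepsin D, stood at 10.0 and 17.3 in KO cells with LPS and 32.5 and 28.1 in untreated KO cells (adjusted p = 0.0878). WT cells had it at 7.97 and 7.28 with LPS and 32.1 and 32.6 untreated (-0.97 ± 0.23, adjusted p = 0.0116). This is the start with E-box cores at 245 and 98 bases printed above. The first start region of Ctsa (chr2:164832697-164833136), the gene of a protective serine carboxypeptidase, stood at 4.66 and 8.66 in KO cells with LPS and 15.5 and 20.9 in untreated KO cells (adjusted p = 0.176). For WT cells the values were 4.41 and 0.462 with LPS and 17.5 and 15.9 untreated (-1.19 ± 0.30, adjusted p = 0.0155). Neither start overlapped between LPS and untreated libraries in either genotype. The start of Cd63, a tetraspanin of late endosomes, fell by 0.73 ± 0.23 in WT cells (adjusted p = 0.0438), a call that ended on the log2 scale and with the replicate number as a block. Whether the LPS effect differed between genotypes was tested in the same limma fit, and the adjusted p was 0.856 for Mitf, 0.864 for Ctsd, 0.838 for Ctsa and 0.789 for Cd63.

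LPS was accompanied by both new and missing calls around the lysosomal genes. A region is called gained here where both libraries of the group named first had a peak and neither of the other group did, and lost where the reverse held. In KO cells with LPS, 15 of the 247 regions (6.07%) were gained and 20 (8.10%) were lost against untreated KO cells, beside 8.03% and 5.56% of all regions. WT cells with LPS showed 17 gained (6.88%) and 21 lost (8.50%) against untreated WT cells, beside 10.1% and 6.02% of all regions. In both genotypes the lysosomal regions thus had a lower share of gained and a higher share of lost calls than all regions, which was not tested. No region was gained with LPS in 1 genotype and lost in the other, beside 0.0208% of all regions. In both genotypes 11 were gained (4.45%) and 8 were lost (3.24%), beside 4.85% and 1.79% of all regions, which was not tested. With 2 libraries a group an exact two-sided test cannot reach a p below 0.333, so these are counts without a test, and a region without a peak need not be closed DNA.

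**Figure D2:**
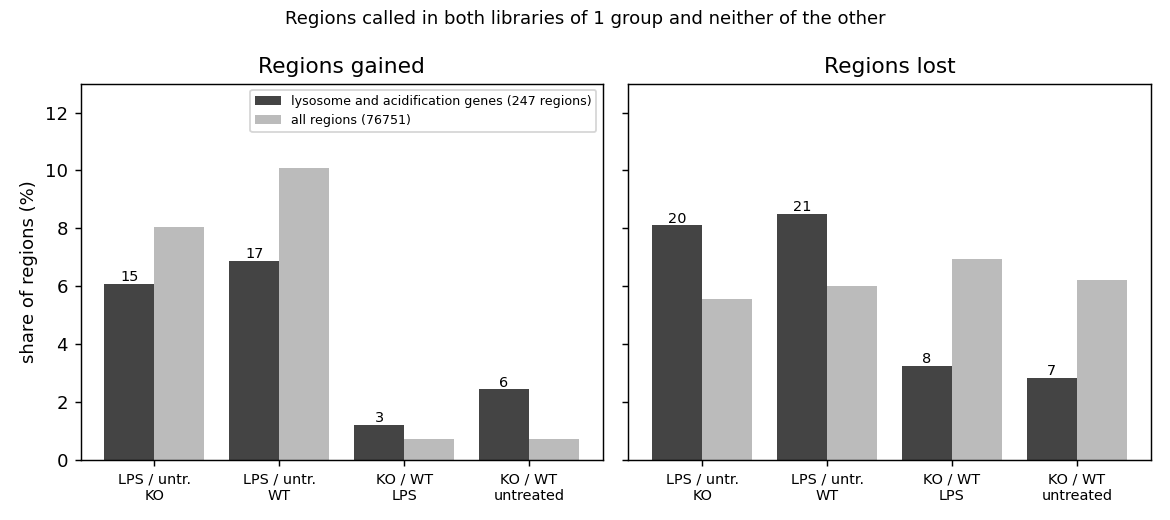
Share of regions gained (left) and lost (right) in percent (y axis) in each of the 4 comparisons (x axis), for the 247 lysosomal regions in dark bars, with their number above, and all 76751 regions in light bars. With LPS the dark bars are below the light ones for gained regions (6.07% against 8.03% in KO) and above them for lost regions (8.10% against 5.56% in KO).

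In all, 62 regions at 23 genes were gained or lost in at least 1 of the 4 comparisons and 185 were not. The share was 25.1%, near the 28% of all regions. None of the 62 held a start of the RefSeq windows. Regions of Atp6v0a1 (chr11:101010078-101010361) and Ctsk (chr3:95498791-95499049) did overlap a start window but ended before the start. With LPS in WT cells the Atp6v0a1 region was gained and the Ctsk region lost. The Atp6v0a1 region was also lost in KO against WT cells after LPS. Both stood at list percentiles under 10 wherever they were called. Starts of genes with no such window, among them Atp6v0d2 and Ctsb, could not be counted. At Atp6v0a1, Atp6v0d2 and Ctsb, 3 of the 62 covered an end of the gene's annotated span. The Atp6v0a1 region, chr11:101063554-101063977, covered the higher-numbered end of this plus-strand gene, which is the end away from its start. Of the 62 regions, 33 lay inside the gene they were assigned to, where 49.8% of the 247 regions and 42.3% of all regions did. How many of all gained or lost regions held a start or lay inside a gene was not counted. Neither count therefore marks out the lysosomal genes. By role, beside the same 28% of all regions, 20 of the 56 regions of the proton pump were gained or lost in some comparison (35.7%), 6 of 27 of the membrane proteins (22.2%), 17 of 80 of the proteases (21.2%), 9 of 50 of the other hydrolases and activators (18%), and 10 of 34 of the 3 transcription factors (29.4%).

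Among the proton pump genes, Atp6v0d2 carried the most such regions. It encodes a d subunit of V0 that is known from osteoclasts and macrophages, and 13 regions were assigned to it. With LPS 5 of them were lost in KO cells, and 3 were lost and 1 was gained in WT cells. The strongest of the lost regions, chr4:19942102-19942607, lay 19.8 kb outside the gene. It was called in no library with LPS of either genotype, and stood at percentiles 84.9 and 78.2 of the list in untreated KO cells and 81.2 and 82.3 in untreated WT cells. An intragenic region at chr4:19894619-19894966 behaved alike, with no call with LPS and 33.0 and 33.9 in untreated KO cells and 41.9 and 42.6 in untreated WT cells. Both were lost in both genotypes, and both calls held in all 4 alternative settings of the calls.

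Other regions of Atp6v0d2 differed by genotype as well. A region 6.60 kb outside the gene (chr4:19928975-19929363) was called in every library except the untreated WT ones. It stood at 58.8 and 75.1 in KO cells with LPS, 30.6 and 20.9 in untreated KO cells and 71.8 and 64.8 in WT cells with LPS. The region over the higher-numbered end of the gene span (chr4:19922394-19922768) was missing only from the WT libraries with LPS. It stood at 40.7 and 38 in KO cells with LPS, 60.4 and 56.7 in untreated KO cells and 24.5 and 16.3 in untreated WT cells. Whether it holds the start was not examined, since the gene had no start window. Another, at chr4:19950574-19950931, was called only in untreated KO cells, at 24.8 and 51.9; its calls ended under 2 of the 4 settings.

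**Figure D3:**
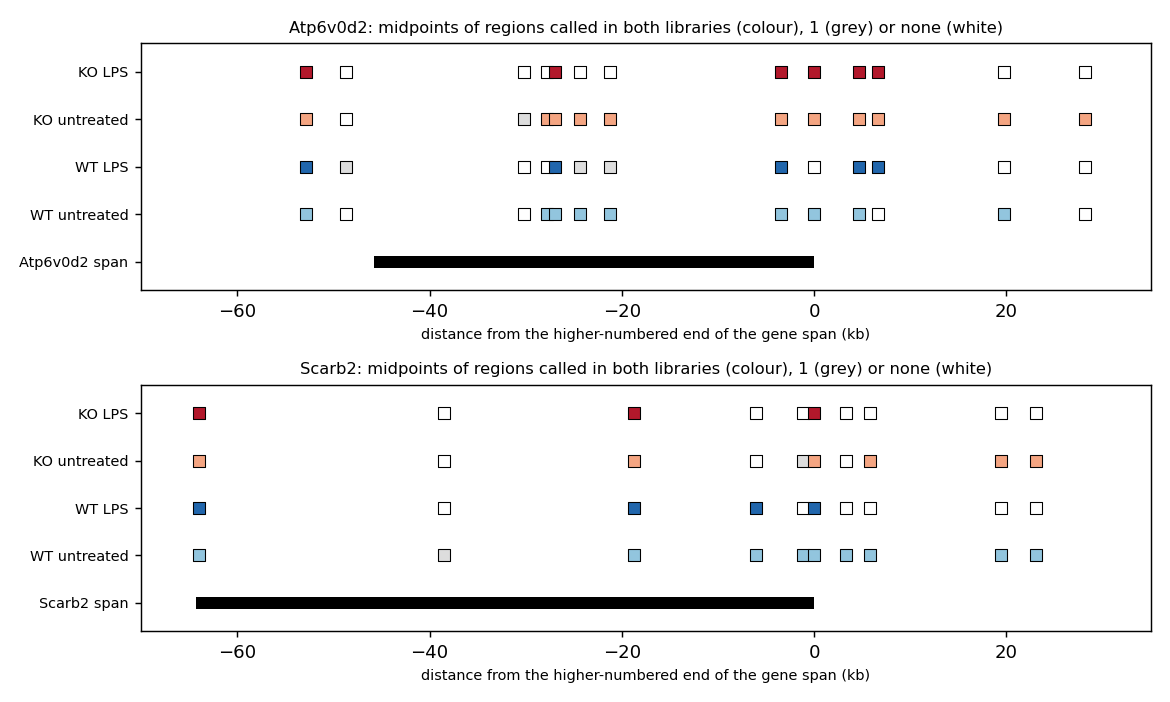
Regions assigned to Atp6v0d2 (top) and Scarb2 (bottom), with the distance of each region's midpoint in kb from the higher-numbered end of the gene span on the x axis and the 4 groups on the y axis; squares are filled in colour where both libraries of the group had a call, grey where 1 had and white where none had, and the black bar is the gene span. The squares of the lost Atp6v0d2 region at 19.8 kb and of the Scarb2 regions at 19.5 and 23.1 kb are filled in both untreated groups and white in both LPS groups.

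Because Atp6v0d2 and Ctsk are also used by osteoclasts, other osteoclast markers were counted. Of 6 such genes 5 had a region, Calcr being the exception, and 18 regions were assigned to them. The number called was 12 and 12 in KO cells with LPS, 13 and 14 in untreated KO cells, 14 and 14 in WT cells with LPS, and 14 and 13 in untreated WT cells. With LPS, 1 was gained (5.56%) and 2 were lost (11.1%) in KO cells, beside 8.03% and 5.56% of all regions. In WT cells 2 were gained (11.1%) and 3 lost (16.7%), beside 10.1% and 6.02% of all regions. Their part in the result for Atp6v0d2 was not tested.

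The other V0 genes gave regions in both directions. At Atp6v0a1, the a subunit that holds the proton path, the region chr11:101019709-101020116, 10.5 kb inside the gene, was called only with LPS. It stood at 75.0 and 73.7 in KO cells with LPS and 72.3 and 80.0 in WT cells with LPS, and was called in no untreated library. A shared region of Atp6v0a1 14.6 kb outside it (chr11:100994557-100995104) fell with LPS, to 8.84 and 11.2 in KO cells, against 51.3 and 58.2 untreated (-1.40 ± 0.23, adjusted p = 0.00111 by limma). In WT cells it stood at 6.73 and 4.12 with LPS and 28.2 and 23.3 untreated (-0.96 ± 0.23, adjusted p = 0.0119). The 2 Atp6v0a1 regions thus went opposite ways with LPS. Atp6v0d1, the d subunit that most cells use, had 7 regions, 1 lost in each genotype with LPS, and not the same region.

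The V1 genes had fewer. At Atp6v1b2, a B subunit, the region chr8:69103036-69103419 was called only with LPS, at 39.9 and 28.4 in KO cells and 61.5 and 56.4 in WT cells. At Atp6v1c1, the C subunit that joins V1 to V0, the region chr15:38660065-38660466, 1.68 kb outside, was called in no library with LPS and stood at 38.9 and 43.8 in untreated KO and 52.7 and 45.4 in untreated WT cells. Another Atp6v1c1 region, chr15:38725793-38726045, was called in untreated WT cells alone, at 42.2 and 36.2. The strongest pump region, chr15:38710038-38710655, 17.9 kb outside Atp6v1c1, was high everywhere. Among shared regions it stood at 98.2 and 98.1 in KO cells with LPS and 93.3 and 92.9 in untreated KO cells (0.60 ± 0.19, adjusted p = 0.0409), a call that reversed to -0.00478 with −log10 p ranked in place of fold enrichment. WT cells had it at 96.5 and 98.1 with LPS and 95.3 and 90.7 untreated (adjusted p = 0.133).

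For Atp6v1a, the ATP-splitting A subunit, 7 regions included 1 lost with LPS in KO cells and 1 shared region that rose with LPS in WT cells (chr16:44087651-44088017, 0.97 ± 0.23, adjusted p = 0.0103). Atp6v1d, of the central stalk, had 1 weak region, chr12:78860848-78861150, called in 7 of the 8 libraries. Atp6v1h, a regulatory subunit, had 2, of which chr1:5082726-5083600 was called in all 8.

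The membrane proteins were led by Scarb2, which carries the enzyme glucocerebrosidase to the lysosome. Of its 10 regions, 3 were lost with LPS in KO cells and 5 in WT cells, and none was gained. The 2 farthest outside the gene, chr5:92528548-92528915 and chr5:92524899-92525311, were called in no LPS library. The list percentiles of chr5:92528548-92528915 were 45.2 and 42.3 in untreated KO cells and 59.0 and 41.0 in untreated WT cells. Those of chr5:92524899-92525311 were 43.6 and 56.0 in untreated KO cells and 30.9 and 43.1 in untreated WT cells. A closer one, chr5:92511307-92511634, followed the same pattern, and the other 2, lost in WT cells alone, stood at list percentiles under 10.

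Against this direction, a shared region inside Scarb2 had the smallest adjusted p of all lysosomal regions. The region chr5:92486692-92487180, 18.7 kb from the nearest gene end, stood at 97.8 and 94.3 in KO cells with LPS, 70.5 and 65.9 in untreated KO cells, 95.3 and 95.5 in WT cells with LPS and 47.6 and 52.7 in untreated WT cells. It rose by 1.32 ± 0.18 with LPS in KO cells (adjusted p = 0.000374) and by 1.68 ± 0.18 in WT cells (adjusted p = 8.73e-05). In both genotypes the LPS libraries stood above the untreated ones without overlap.

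Npc1, which exports cholesterol from the lysosome, had 7 regions and none gained or lost. Its shared region chr18:12229947-12230458 fell with LPS, to 11.2 and 7.51 in KO cells, against 33.0 and 44.7 untreated (-1.04 ± 0.25, adjusted p = 0.00979). Its WT percentiles were 17.5 and 7.92 with LPS and 33.6 and 39.2 untreated (-0.82 ± 0.25, adjusted p = 0.0362). Another Npc1 region, chr18:12187458-12187832, rose in WT cells (1.06 ± 0.26, adjusted p = 0.0132), a call that ended with −log10 p ranked. Cd63 had 4 regions, and of these the start alone passed a test. Lamp1 had 3 regions, Cd68, a macrophage lysosomal glycoprotein, had 2, and Mcoln1, a calcium channel of the lysosome, had 1; all 6 were called in every library and passed no test.

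Proteases gave the largest number of regions, 80 at 11 genes, and 46 of them were called in every library. The strongest lysosomal region of all by mean list percentile belonged to Ctsc, the cathepsin that activates granule serine proteases. It was chr7:88271422-88271964, 6.34 kb outside the gene, at 99.6 and 99.8 in KO cells with LPS, 99.9 and 98.2 in untreated KO cells, 99.6 and 99.6 in WT cells with LPS and 99.2 and 99.4 in untreated WT cells. Next came chr3:95511674-95512238, 2.58 kb outside Ctsk, at 98.6 and 98.0 in KO cells with LPS, 99.7 and 99.7 in untreated KO cells, 98.6 and 99.5 in WT cells with LPS and 99.96 and 99.2 in untreated WT cells. Both were near the top of every list.

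Ctsc, with 19 regions the most of any listed gene, changed with LPS at several of them. Regions chr7:88244197-88244724 and chr7:88346556-88346882 were called only with LPS, in both genotypes. The first stood at 76.6 and 65.3 in KO cells with LPS and 77.1 and 78.1 in WT cells with LPS, and the second at 51.8 and 52.7 in KO cells with LPS and 51.9 and 55.3 in WT cells with LPS. The shared region chr7:88264538-88265041 rose with LPS, to 63.4 and 73.5 in KO cells, against 35.8 and 48.2 untreated (0.69 ± 0.20, adjusted p = 0.0276). The WT libraries gave 91.1 and 87.1 with LPS and 40.5 and 52.8 untreated (1.32 ± 0.20, adjusted p = 0.000855). The difference between these effects had an adjusted p of 0.677.

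Next to the gained region chr7:88244197-88244724, the shared region chr7:88243026-88243451 fell with LPS. It stood at 51.0 and 72.1 in KO cells with LPS and 86.2 and 92.4 in untreated KO cells (-0.95 ± 0.21, adjusted p = 0.00578). In WT cells it stood at 49.7 and 46.8 with LPS and 88.9 and 90.9 untreated (-1.32 ± 0.21, adjusted p = 0.000962). The KO calls of both shared Ctsc regions ended with −log10 p ranked.

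Ctsb, a cysteine protease, showed the same kind of contrast. Its shared region chr14:63148453-63149005, 2.87 kb outside the gene, rose with LPS, to 47.6 and 43.5 in KO cells, against 2.89 and 6.09 untreated (1.61 ± 0.26, adjusted p = 0.000992). WT cells had it at 41.0 and 30.7 with LPS and 3.66 and 1.09 untreated (1.68 ± 0.26, adjusted p = 0.00095). Untreated libraries of both genotypes thus had it near the bottom of the shared regions. A region 10.7 kb outside (chr14:63111612-63112076) was called in all but the untreated WT libraries, at 55.5 and 64.0 in KO cells with LPS, 41.5 and 22.1 in untreated KO cells and 56.7 and 76.3 in WT cells with LPS. Another, chr14:63102977-63103481, was missing only from WT cells with LPS, at 19.1 and 23.6 in KO cells with LPS, 72.5 and 73.9 in untreated KO cells and 59.7 and 65.7 in untreated WT cells.

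At Ctsl, a cysteine protease of antigen processing, chr13:64345923-64346276 was called only with LPS, at 70.9 and 73.7 in KO cells and 68.7 and 74.7 in WT cells. At Ctsk, the collagen-degrading cathepsin, chr3:95504785-95505128 inside the gene was called in no library with LPS, and stood at 41.8 and 57.1 in untreated KO cells and 55.3 and 46.9 in untreated WT cells.

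Shared regions of Ctsh and Ctsd fell with LPS, and another of each rose in 1 genotype. The Ctsh region chr9:90067315-90067855, inside the gene of this aminopeptidase, stood at 77.2 and 60.7 in KO cells with LPS and 97.7 and 93.0 in untreated KO cells (-1.23 ± 0.22, adjusted p = 0.00183). Its WT percentiles were 77.4 and 69.1 with LPS and 93.7 and 96.2 untreated (-1.03 ± 0.22, adjusted p = 0.00645). In the same way the Ctsd region chr7:142397980-142398438, 10.4 kb outside, stood at 16.7 and 18.1 in KO cells with LPS and 52.1 and 49.6 in untreated KO cells (-0.96 ± 0.23, adjusted p = 0.00927). The WT libraries gave 11.9 and 11.0 with LPS and 40.8 and 26.3 untreated (-0.77 ± 0.23, adjusted p = 0.0324). For neither gene did LPS and untreated libraries of a genotype overlap. A neighbouring Ctsd region, chr7:142399252-142399774, rose with LPS in KO cells (0.97 ± 0.23, adjusted p = 0.01). Another Ctsh region, chr9:90060314-90060824, rose with LPS in WT cells, to 49.5 and 35.5, against 10.4 and 23.7 untreated (0.79 ± 0.26, adjusted p = 0.0489). That call ended with the replicate number as a block and without either WT LPS, either WT untreated or either KO untreated library. In KO cells the same region stood at 27.2 and 44.0 with LPS and 33.3 and 32.1 untreated (adjusted p = 0.885).

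The remaining proteases had fewer calls. Ctss, the cathepsin of antigen presentation, had 2 shared regions that fell with LPS in KO cells. The call of chr3:95523672-95524129 ended on the log2 scale and with any 1 library left out. The call of chr3:95529740-95530236 ended with some of the libraries left out. Lgmn, an asparagine-specific protease, had 1 region lost with LPS in KO cells and Ctsz 1 gained in WT cells, both at list percentiles under 10. Ctsh had 1 region lost in KO cells and Ctsd 1 gained in WT cells. Only the region of its first start was assigned to Ctsa. The second start of Ctsa lay in chr2:164833257-164834203, which was assigned to Neurl2 and so was not among the start regions counted in the tests above. That region stood at 5.15 and 5.21 in KO cells with LPS and 23.7 and 12.4 in untreated KO cells. WT cells had it at 3.21 and 2.58 with LPS and 17.6 and 11.4 untreated, and its test is not reported here. The single region of Tpp1, a tripeptidyl peptidase, passed no test.

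Among the other hydrolases and activators, Lipa changed in both directions. Its region chr19:34500731-34501145, 8.59 kb inside the gene, rose with LPS, to 76.8 and 84.5 in KO cells, against 55.9 and 41.3 untreated (0.91 ± 0.19, adjusted p = 0.00416). In WT cells it stood at 96.9 and 96.1 with LPS and 77.0 and 73.3 untreated (1.14 ± 0.19, adjusted p = 0.00133). Libraries with LPS were above untreated ones of their genotype. The region chr19:34515683-34516162, also inside Lipa, fell with LPS, to 42.9 and 25.9 in KO cells, against 71.6 and 79.6 untreated (-1.11 ± 0.21, adjusted p = 0.00241). WT cells had it at 37.3 and 46.1 with LPS and 72.5 and 71.9 untreated (-0.80 ± 0.21, adjusted p = 0.0184). Here they were below, again without overlap. Another Lipa region, chr19:34521397-34521782, was called in no library with LPS and in all untreated ones, at 43.6 and 19.5 in KO and 35.2 and 24.5 in WT cells.

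Npc2, which hands cholesterol to NPC1, had a shared region at the low end, chr12:84748152-84748563, that fell with LPS. It stood at 3.25 and 0.840 in KO cells with LPS and 11.3 and 24.8 in untreated KO cells (-1.17 ± 0.31, adjusted p = 0.0177). Its WT percentiles were 2.17 and 0.397 with LPS and 18.6 and 10.2 untreated (-1.26 ± 0.31, adjusted p = 0.0146). Psap, the precursor of the sphingolipid activator proteins, had 14 regions, with 3 gained and 2 lost in KO cells and 2 gained in WT cells with LPS. The gained Psap regions and that of Npc2 stood at list percentiles below 10 wherever they were called. At Grn, whose product progranulin is needed for lysosomal function, 1 shared region rose and 1 fell with LPS in KO cells. Psap had 1 that fell in KO cells and Hexa, a hexosaminidase subunit, 1 that rose in WT cells, calls that ended with −log10 p ranked. Man2b1, a mannosidase, had a region called in untreated WT cells alone (chr8:85092437-85092805, at 37.3 and 47.2). Gusb, a glucuronidase, had 3 regions, of which chr5:129995077-129995300 was called in untreated KO cells alone, at 20.3 and 12.8. The single regions of Gaa, the acid glucosidase, and Asah1, the acid ceramidase, were called in every library and passed no test.

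The transcription factor genes had 34 regions, 18 of them at Mitf. With LPS 4 were gained at Mitf in each genotype, and 3 of these were gained in both. They lay at chr6:97840047-97840529, chr6:97841224-97841481 and chr6:97854405-97854751, within the gene. A further region was lost with LPS in each genotype. In KO cells it was chr6:97788437-97788924, at 29.0 and 9.76 untreated, and in WT cells chr6:97814239-97814574, at 3.03 and 12.8 untreated. The first of the regions gained in both stood at 32.3 and 38.1 in KO cells with LPS and 32.2 and 62.5 in WT cells with LPS. The third of these stood at 43.5 and 33.3 in KO cells with LPS and 19.8 and 26.3 in WT cells with LPS. While these intragenic regions were called with LPS, the start region of Mitf fell in rank in WT cells, as given above. Tfeb had 11 regions, 1 lost with LPS in WT cells and 1 shared region that rose there (chr17:47784194-47784835, 0.62 ± 0.18, adjusted p = 0.0298). Tfe3 had 5 and none gained or lost with LPS.

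Over all shared regions, LPS was followed by rank changes at the lysosomal genes about as often as elsewhere. In KO cells 24 of the 133 shared lysosomal regions passed the limma test with LPS (18.0%), beside 19.5% of all shared regions; 9 were higher and 15 lower, where 9.98% of all were higher and 9.5% lower. In WT cells 21 passed (15.8%), beside 15.9% of all; 10 were higher and 11 lower, where 8.09% of all were higher and 7.79% lower. These shares are near those of all regions and so mark nothing out about the lysosomal genes. With −log10 p ranked, the split was 9 higher and 29 lower in KO cells and 14 higher and 24 lower in WT cells, where all shared regions gave 4356 higher and 4351 lower in KO and 4099 higher and 3993 lower in WT cells. The median difference was -0.10 in KO and -0.04 in WT cells, against -0.02 in KO and -0.01 in WT cells over all shared regions.

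The 34 regions with a rank call of any kind lay at 19 genes, and 11 passed the LPS test in both genotypes, 13 in KO cells alone and 10 in WT cells alone. These were 8.27%, 9.77% and 7.52% of the 133 regions, beside 10.1%, 9.39% and 5.79% of all shared regions. Of the 11, those of Scarb2, Ctsb, Ctsc and Lipa rose in both, and those of Ctsd, Lipa, Npc1, Atp6v0a1, Ctsh, Npc2 and another of Ctsc fell in both. The test of the difference between genotypes was passed by 0 of the 133 regions with limma, and by 0 under every alternative fit that kept all libraries. Over all shared regions it was passed by 0%. An unadjusted p under 0.05 was reached there by 11 of the 133, beside 2243 of all 30960 shared regions. Of the 46 rank calls in all contrasts, 12 held in every fit that included the region, also with each library left out in turn, where the lone library of a group is assumed to vary like the others. They were both LPS calls of the risen Scarb2, Ctsb and Lipa regions, the WT calls of both Ctsc regions, and the KO calls of Atp6v0a1, Ctsd, Ctsh and the Lipa region that fell.

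**Figure D4:**
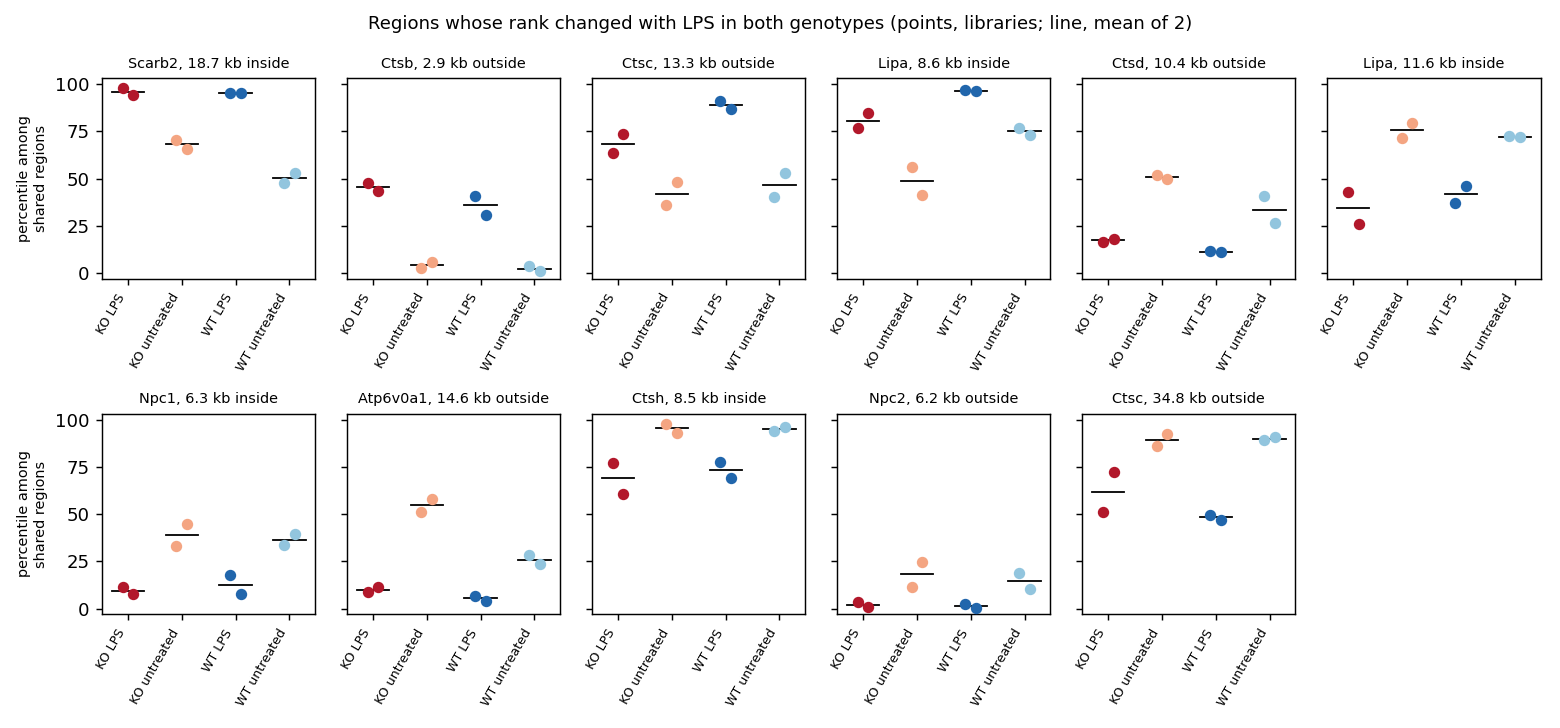
Percentile among shared regions (y axis, 0 to 100) of the 11 regions whose rank changed with LPS in both genotypes, with points for the 2 libraries of each group (x axis) and a line at their mean; titles give the gene and the distance of the region from its nearest end. In the Scarb2 panel the LPS libraries stand at 97.8 and 94.3 (KO) and 95.3 and 95.5 (WT), against 70.5 and 65.9 (KO) and 47.6 and 52.7 (WT) untreated.

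Among the regions called only with LPS in both genotypes, those of Atp6v0a1, Ctsc and Ctsl stood highest in the lists. Among those called only without LPS, the Atp6v0d2 region 19.8 kb outside the gene stood above all others.

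**Figure D5:**
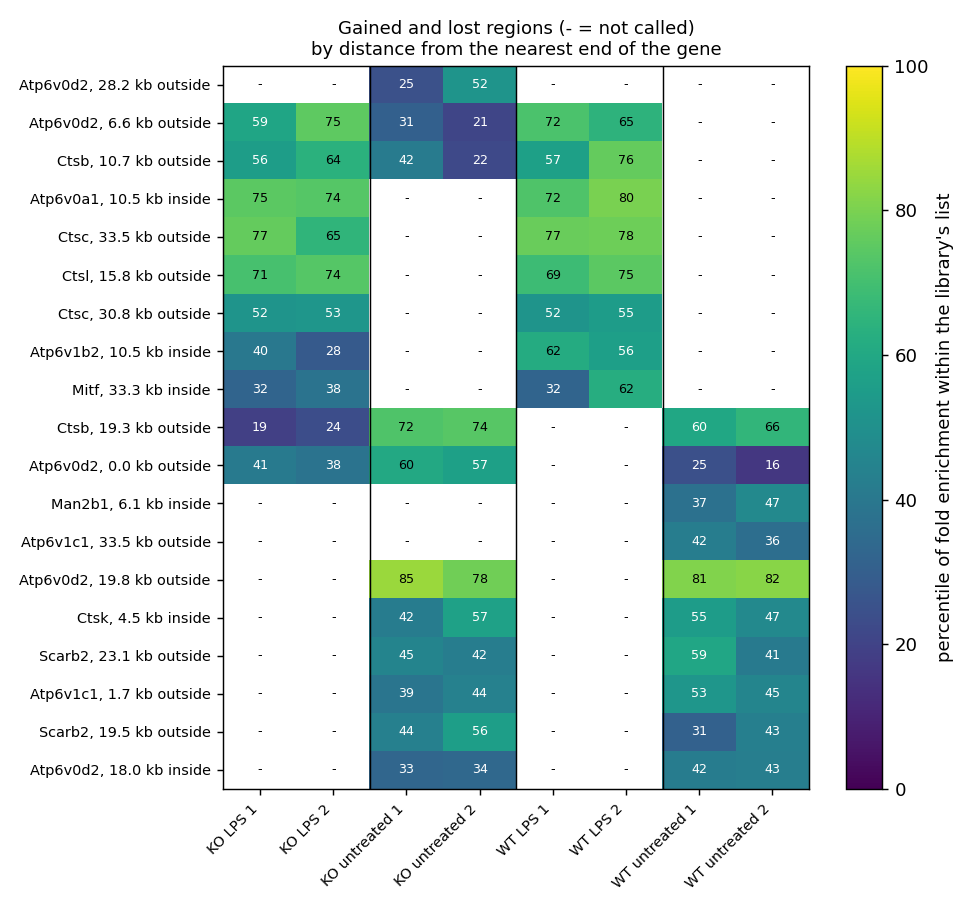
Percentile of fold enrichment within each library's own list (colour and number, 0 to 100) for 19 gained or lost regions (y axis, gene and distance from its nearest end) in the 8 libraries (x axis); a dash is no call. Regions of Atp6v0a1, Ctsc, Ctsl, Atp6v1b2 and Mitf have values in both LPS groups alone, and the 6 lowest rows in both untreated groups alone.

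The genotypes differed at few lysosomal regions. After LPS, KO cells had 3 gained regions (1.21%) against WT cells, beside 0.711% of all regions, and 8 lost (3.24%), beside 6.94%. Untreated KO cells had 6 gained (2.43%) against untreated WT cells, beside 0.735% of all, and 7 lost (2.83%), beside 6.22%. Lost regions were thus a smaller share at the lysosomal genes than among all regions in both treatments, and gained regions a larger one in untreated cells, neither of which was tested. The gained count in untreated cells was 2 (0.930%, beside 0.779% of all) where only peaks with a −log10 p of at least 20 were kept. With lists of equal length, lost regions were 2 in either treatment (0.905%), beside 2.67% of all regions after LPS and 2.49% untreated, so lost calls were fewer over all regions as well. Gained regions were then 4 after LPS (1.81%) and 9 untreated (4.07%), beside 2.27% of all in each.

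The 6 regions gained in untreated KO cells lay at Atp6v0d2 (2 regions), Ctsb, Ctsk, Ctsl and Gusb. The Ctsk region, chr3:95499533-95499868, was the only lysosomal region with calls from every KO library and none from WT. It stood at 31.4 and 25.9 in KO cells with LPS and 8.45 and 4.79 in untreated KO cells, so it was weak where untreated. Ctsk lies on chromosome 3, 6.99 Mb from Lmna, so the surroundings of the targeted gene and the loss of Lamin-A cannot be told apart there. The reverse pattern was held by Scarb2 region chr5:92499388-92499839, at 34.5 and 15.2 in WT cells with LPS and 28.6 and 9.69 in untreated WT cells. That call ended under 2 of the 4 settings.

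After LPS, the 3 regions called in KO and not in WT cells were this Ctsk region and the regions of Ctsb (chr14:63102977-63103481) and Atp6v0d2 (chr4:19922394-19922768) described above. The 8 lost ones lay at Tfe3 (2 regions), Mitf, Atp6v0a1, Atp6v1a, Atp6v1c1, Ctsc and Scarb2. At Tfe3, chrX:7776358-7777008 was called in no KO library with LPS, and stood at 13.9 and 35.4 in WT cells with LPS. Both Tfe3 calls ended under 2 of the 4 settings.

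In rank, untreated KO and WT cells differed at 0 of the 133 shared lysosomal regions with limma, beside 1.08% of all shared regions. An unadjusted p under 0.05 was reached by 17 of the 133, beside 5089 of all 30960 shared regions. With −log10 p ranked 3 passed (2.26%, beside 3.25% of all shared regions), at Atp6v1c1, Scarb2 and Ctsh, all higher in KO cells. On the log2 scale 1 passed (0.752%, beside 1.68% of all), at Atp6v1c1. Although no call resulted in the main fit, 69.2% of the 133 had a positive difference, with a median of 0.14 against 0.02 over all shared regions. This shift was not tested, and the share of positive differences over all shared regions was not counted. After LPS 1 region passed (0.752%), beside 0.698% of all, and 0.475% of all in its direction, lower in KO. It was the Lipa region chr19:34500731-34501145, at 76.8 and 84.5 in KO cells with LPS and 96.9 and 96.1 in WT cells with LPS (-0.94 ± 0.19, adjusted p = 0.0433). The call ended with −log10 p ranked, on the log2 scale and with the replicate block.

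Neither a gained or lost region nor a rank call was found at 8 of the 37 genes, which were Asah1, Atp6v1d, Atp6v1h, Cd68, Gaa, Lamp1, Mcoln1 and Tpp1. Of these, Gaa, Lamp1 and Mcoln1 have the E-box cores printed above, and 5 held a start in a region called in all 8 libraries. The absence of a call at this number of libraries does not show that these regions did not change.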

How the data were processed

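Peak lists of 8 ATAC-seq libraries were used as deposited. Per the submitters' processing notes, BWA 0.7.12, MACS2 and build mm10 were used; their settings are not given in the sources used here. Each deposited list holds, per peak, an integer score, a fold enrichment (a linear ratio over the background), the −log10 p and −log10 q, and the offset of the summit. Lists had been filtered by the authors, and the lowest deposited −log10 p was 7.35 to 7.93. Treatment follows the titles and the treatment field; the source name of an LPS library also contains the word untreated.

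Peaks overlapping by 1 bp were merged into regions and given by the summit of the strongest peak to the nearest end of 21900 RefSeq protein-coding gene spans within 50 kb. Fold enrichment was ranked within a library and fitted with limma 3.58.1 (R 4.3.3), 1 mean per group, trended variance, 5 contrasts, Benjamini-Hochberg over 30960 regions. The fit was tested on simulated data. Tables were built with pandas 2.3.3 in Python 3.11.15. Same-numbered libraries did not deviate together (correlations of -0.0769 to 0.0317), so the replicate number was used as a block only as an alternative. No counts or read totals were used, so the depth behind each value is unknown and no interval for it is given.

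Regions given in full were those gained or lost, those with a rank call and the strongest region of the 10 highest genes; of 104 that qualified, the 30 meeting most comparisons were kept. Further regions were named to account for every gene. The genes and lists were chosen with earlier results of these data known.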

Additional observations from a re-analysis of the deposited data

How the results depend on the processing

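Of the 97 calls of gained or lost regions, 56 remained with peaks of −log10 p of at least 20 alone, 97 where peaks had to overlap by 50% of the shorter peak, 74 with lists of equal length and 76 with genes within 20 kb, and 40 held in all 4. With −log10 p of at least 20, gained regions of KO against WT untreated were 2; with genes within 20 kb, gained regions with LPS in KO were 9; with lists of equal length, lost regions of KO against WT were 2 after LPS and 2 untreated. Leaving out 1 library loosens a call by construction, since fewer libraries must have the peak. Gained regions were then 17 to 21 and lost ones 24 to 32 with LPS in KO, 19 to 28 and 25 to 29 with LPS in WT, 3 to 9 and 11 to 23 for KO against WT after LPS, and 6 to 11 and 13 to 15 for KO against WT untreated. The ends of these ranges past 1.5 times came without WT LPS replicate 2 (28 gained in WT, 23 lost after LPS), KO untreated replicate 1 (32 lost in KO, 11 gained untreated) and KO LPS replicate 2 (9 gained after LPS), and for lost regions untreated without any of the untreated libraries. Of 46 rank calls, 34 held in every limma fit with all libraries and 12 also with each library left out. With −log10 p ranked the calls were 38 with LPS in KO (28.6%, beside 28.1% of all shared regions) and 38 with LPS in WT (28.6%, beside 26.1%). They were 3 for KO against WT untreated (2.26%, beside 3.25%) and 3 after LPS (2.26%, beside 1.99%). After LPS, Cd63 and Atp6v1a were higher in KO and Lgmn lower. The Atp6v1c1 region at 38710038 reversed in KO to -0.00478, and the cause was not tested. On the log2 scale 1 passed for KO against WT untreated and 0 after LPS. The replicate block gave 23 calls with LPS in KO, 19 with LPS in WT, 0 for KO against WT untreated and 0 after LPS, and 0 for the difference of the LPS effect; since same-numbered libraries did not deviate together, it pairs nothing. With 1 library left out, rank calls were 8 to 21 with LPS in WT (lowest without WT LPS replicate 2, and 12 or fewer without any WT library), 12 to 24 with LPS in KO (lowest without KO LPS replicate 2, and 15 or fewer without any KO library), 0 to 1 for KO against WT after LPS (0 without any library but the untreated KO ones), 0 to 0 untreated and 0 to 0 for the difference of the LPS effect. What depth limits cannot be said, since read totals were not used.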

Other observations

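A further 69 genes of the same pathway were listed, among them other pump subunits, lipid and sugar hydrolases, sorting receptors and the mTORC1 anchors on the lysosome. Of these, 68 had at least 1 region, Idua being the exception, and 299 regions were assigned to them. As at the genes above, 54.2% were called in all 8 libraries. With LPS, 12 regions were gained (4.01%) and 21 lost (7.02%) in KO cells, beside 8.03% and 5.56% of all regions, and 14 were gained (4.68%) and 17 lost (5.69%) in WT cells, beside 10.1% and 6.02%. KO cells after LPS had 4 gained (1.34%) and 12 lost (4.01%) against WT cells after LPS, beside 0.711% and 6.94% of all regions. Untreated KO cells had 3 gained (1.003%) and 11 lost (3.68%) against untreated WT cells, beside 0.735% and 6.22%.

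Arsb, the arylsulfatase that acts on dermatan sulfate, had the highest total of gained or lost calls over the 4 comparisons, 11. It also had the most regions of these further genes, 17. In KO cells 2 of its regions were lost with LPS, and in WT cells 3. KO cells had 1 gained and 2 lost Arsb regions against WT cells after LPS, and 3 lost when untreated. Tpcn2, a cation channel of the lysosome, followed with 7 calls over 13 regions. Gnptab, which makes the mannose 6-phosphate tag of lysosomal enzymes, had 6 over 16 regions. Igf2r, a receptor for that tag, had 6 over 14 regions. Clcn7, Fnip2, Mcoln3, Ostm1 and Slc15a3 had 4 calls each, over 7, 14, 3, 5 and 5 regions. A region can count in more than 1 comparison, and a gene with more regions can collect more calls. Calls per region were not counted over all regions, so these totals mark no gene out.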
